A study of Mus musculus with 2 samples.

Results

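The Shc and Dok receptor adaptors are cytoplasmic proteins that dock on activated receptor tyrosine kinases. The 7 genes described here are Shc1, Shc2, Shc3, Shc4, Dok4, Dok5 and Dok6. They are identified by gene symbol, as a set chosen with earlier results of these data known, and make up 7 of the 33696 genes in the count tables. The data are single-nucleus RNA sequencing counts of the mouse hippocampus at postnatal day 19. The control library came from Cicflox/flox mice, in which both copies of Cic carry a conditional allele. The other library came from Emx1-Cre; Cicflox/flox littermates, labelled knockout, so both groups share the floxed alleles and only the second carries the Cre driver. Per genotype, 1 hippocampus per animal was taken from 2 males and 1 female and the 3 were pooled, so each group is 1 library and no difference below has a replicate error or a test.

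Cic encodes Capicua, a transcriptional repressor that binds short TGAATGAA-like DNA sites and is relieved from its targets by signalling through Ras and ERK kinases. Emx1-Cre recombines in the dorsal telencephalic lineage, which gives rise to the excitatory neurons of the hippocampus and to part of its glia, whereas forebrain inhibitory neurons and microglia arise elsewhere. Shc proteins bind phosphorylated receptors through a PTB and an SH2 domain and, once phosphorylated themselves, recruit Grb2 and Sos to activate Ras. Shc1 is widespread, while Shc2 and Shc3 are known as the Shc forms of neurons. Dok4, Dok5 and Dok6 bind receptors through a PTB domain, and Ret and the neurotrophin receptors are among their partners.

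After filtering and removal of called doublets, 21865 control and 20531 labelled-knockout nuclei remained, at medians of 9790 and 8766 unique molecular identifiers (UMIs). The libraries shared 175 barcode sequences. Joint clustering gave 38 clusters, and classes were named "-like" from fixed markers. Of these classes, 15 held at least 100 nuclei in each library, while 11.5% of control nuclei and 13.2% of nuclei labelled knockout stayed in unnamed clusters. Levels are in CPM (counts per-million), taken over all UMIs that the nuclei of a class gave in a library. Ratios are the labelled knockout over the control on the log2 scale, with 95% intervals that cover counting error only. A gene was called higher or lower by a rule of size: a ratio of at least 2, where whichever library had more also had to reach 50 UMIs and 10 CPM. The level of Cic itself was not lower in the largest labelled-knockout neuronal class: it was 9.08 CPM in control and 12.2 in labelled-knockout dentate granule-like nuclei (log2 ratio 0.42), and 9.88 and 9.57 in inhibitory-like nuclei (-0.04). A count over the whole gene does not show whether the floxed part of the transcript was lost, so the group is called by its label throughout.

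Shc3, Shc4 and Dok5 were higher in some classes of the library labelled knockout, while Shc1, Shc2, Dok4 and Dok6 passed the size rule in no class. Every class called for Shc4 or Dok5 was also called for Shc3. CA1-like and CA3-like nuclei were called for Shc3, Shc4 and Dok5 alike. Of 105 pairs of an adaptor and a class, 59 had the minimum counts. Of these 59, 20 were higher and 0 were lower, against 1.07% higher and 0.522% lower over all gene and class pairs. Shc3 was higher in 10 of 14 classes with the minimum counts, Shc4 in 7 of 9 and Dok5 in 3 of 11. The minimum counts can be met through the higher library alone, so these shares describe measurable classes and not all 15.

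**Figure D1:**
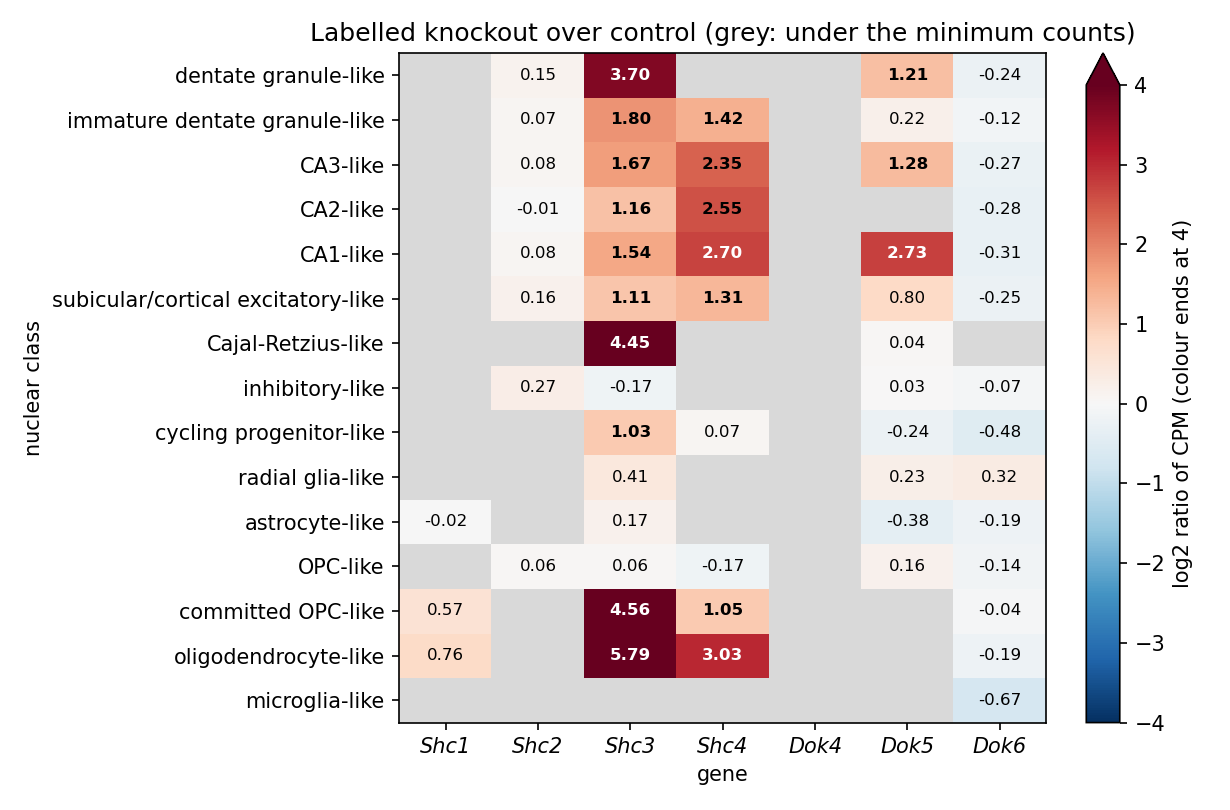
Log2 ratio of CPM, labelled knockout over control, for the 7 adaptors (columns) in 15 nuclear classes (rows). Bold values pass the size rule and grey cells lack the minimum counts. Shc3 reached 5.79 in oligodendrocyte-like nuclei, and Dok6 stayed between -0.67 and 0.32.

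Shc3 encodes a Shc adaptor known from neurons, and it is among the genes reported as Capicua targets. It was the member with the widest difference, and the dentate granule-like nuclei, whose axons are the mossy fibers, showed a larger difference than any pyramidal or immature granule class. Dentate granule-like nuclei held 1046 Shc3 UMIs in the control and 9426 in the labelled knockout. The level was 19.7 CPM in control (95% interval 18.5 to 20.9) and 256 in labelled-knockout nuclei (251 to 261). The intervals lay far apart, and the log2 ratio was 3.70 (3.61 to 3.79), where 2.3% of measurable genes in this class were called higher.

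Most dentate granule-like nuclei fell into a different cluster in each library, so the ratio was also read inside each cluster. Cluster 1, with Bmp6 among its leading genes, held 883 control and 3143 labelled-knockout nuclei, and its Shc3 level was 40.1 and 258 (log2 ratio 2.68). Cluster 3, in which the granule markers Dsp and Trpc6 were among the leading genes, held 3426 and 118 nuclei, and its Shc3 level was 15.1 and 205 (3.76). All 10 dentate granule markers were raised in both clusters. Astrocyte-like nuclei have a high Shc3 level of their own. Astrocyte markers summed to 1263 CPM in control and 1000.5 in labelled-knockout dentate granule-like nuclei. They summed to 51.1 and 80.5 in CA3-like and to 100.8 and 125 in subicular or cortical excitatory-like nuclei. In CA2-like nuclei astrocyte markers summed to 161.8 and 100.0. The part of astrocyte RNA in the Shc3 ratios was not tested.

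The difference was visible nucleus by nucleus. At least 1 Shc3 UMI was present in 16.4% of control dentate granule-like nuclei (15.3% to 17.5%) and in 90.3% of labelled-knockout ones (89.3% to 91.3%), at medians of 11800 and 10856 UMIs per nucleus. Free RNA in the suspension can place a UMI in any nucleus, and microglia-like nuclei, with medians of 2158 and 1718.5 UMIs, showed a Shc3 UMI in 1.85% and 2.17%. Most control Shc3 UMIs of that class came from cluster 37, with 28 control and 0 labelled-knockout nuclei, and without it, an alternative added after the data were seen, the control share was 0.873%. At an equal depth of 2000 UMIs, reached by thinning, a Shc3 UMI remained in 4.20% and 39.2% of dentate granule-like and in 1.52% and 2.14% of microglia-like nuclei, where the control share without cluster 37 was 0.604%. Thinning left out 1 and 6 dentate granule-like nuclei and 662 and 958 microglia-like nuclei that were shallower. Nuclei with 6 or more Shc3 UMIs made up 0.09% of control and 11.5% of labelled-knockout dentate granule-like nuclei.

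**Figure D2:**
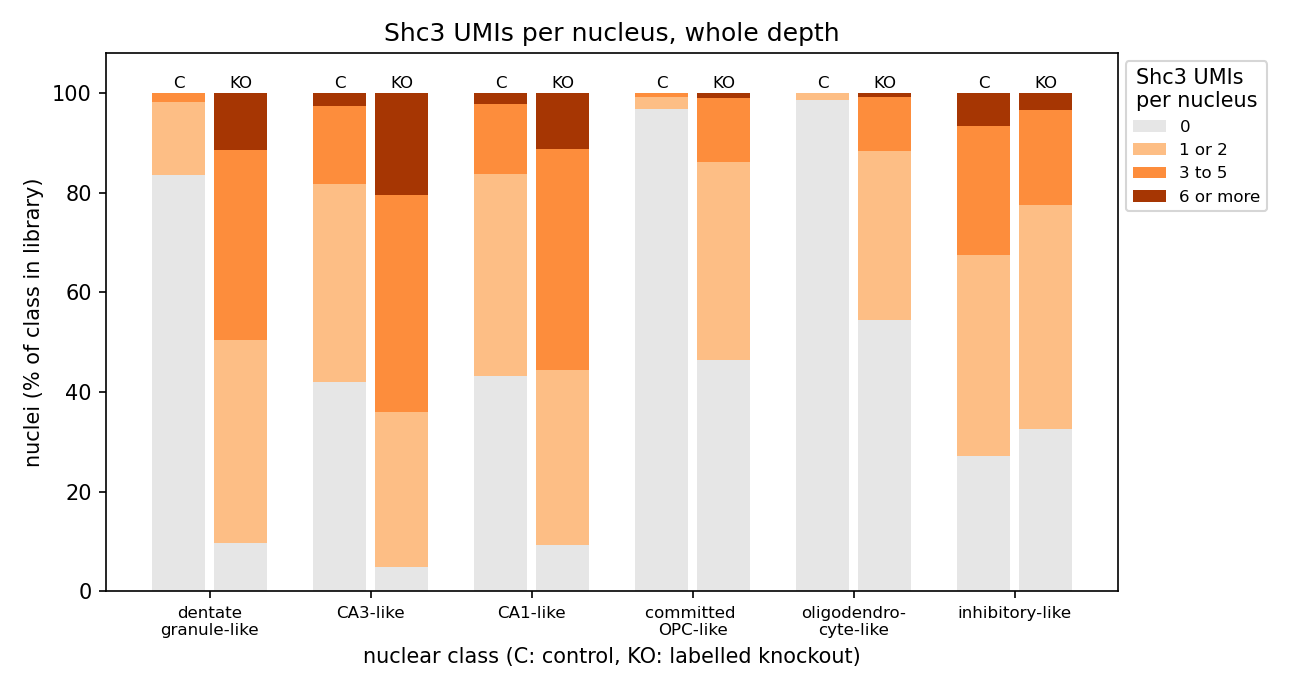
Shc3 UMIs per nucleus at whole depth in 6 classes, as the percentage of nuclei of the class in control (C) and labelled knockout (KO). Nuclei with 0 UMIs fell from 83.6% to 9.66% in dentate granule-like and from 98.6% to 54.3% in oligodendrocyte-like nuclei, and made up 27.1% and 32.6% of inhibitory-like nuclei.

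The immature granule, pyramidal and subicular or cortical excitatory classes started from higher Shc3 levels than dentate granule-like nuclei and differed less. In immature dentate granule-like nuclei the level was 77.1 in control and 269 in the labelled knockout (log2 ratio 1.80, 1.71 to 1.90), where 0.406% of genes were called higher and 0.0321% lower. In CA3-like nuclei, the targets of the mossy fibers, it was 56.5 and 179.6 (1.67, 1.59 to 1.75), against 1.26% of genes higher. In CA1-like nuclei it was 63.9 and 186 (1.54, 1.47 to 1.62), against 3.12%. All of these classes reached levels between 179.6 and 269 in the labelled knockout, beside the 256 of mature granule-like nuclei. CA2-like nuclei stood at 56.0 and 125 (1.16, 0.90 to 1.43), against 2.31% of genes higher. Subicular or cortical excitatory-like nuclei stood at 94.5 and 204 (1.11, 1.00 to 1.21), against 1.01%. The CA2-like call was lost with thinned nuclei (0.72) and in male nuclei (0.98), and the subicular call in male nuclei (0.99) and with called doublets kept (1.00, under 2-fold before rounding).

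By class level in the oligodendrocyte lineage, Shc3 was far lower in the later classes of the control, and much less so in the labelled knockout. The last of these classes was divided unequally into clusters, which are read below. Oligodendrocyte precursor-like nuclei had 212 CPM in control and 221 in the labelled knockout (log2 ratio 0.06, -0.06 to 0.19), where 0.191% of genes were called higher and 0.0319% lower. Committed precursor-like nuclei had 6.55 and 157, from 28 and 605 UMIs (4.56, 4.04 to 5.19), against 1.08% of genes higher. Oligodendrocyte-like nuclei had 1.85 and 105, from 17 and 796 UMIs (5.79, 5.14 to 6.61), against 2.25%. A Shc3 UMI was seen in 1.43% of control and 45.7% of labelled-knockout oligodendrocyte-like nuclei, at medians of 7930 and 8293.5 UMIs. At 2000 UMIs the shares were 0.181% (0.0219% to 0.652%) and 17.3%. The control share at this depth was not above that of microglia-like nuclei with or without cluster 37, so it is read as background.

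Oligodendrocyte-like nuclei were divided unequally between cluster 10, led by Opalin among others, with 456 control and 690 labelled-knockout nuclei, and cluster 13, with Hapln2 and Prr5l among its leading genes, with 660 and 186. Shc3 stood at 1.87 and 119 in cluster 10 (log2 ratio 5.91) and at 1.82 and 19.5 in cluster 13 (3.37, from 8 and 21 UMIs, under the minimum counts). Of the 796 labelled-knockout Shc3 UMIs of the class, 775 lay in cluster 10. The labelled-knockout interval of cluster 13 (12.1 to 29.8) overlapped that of microglia-like nuclei (9.19 to 18.4). The smaller Shc3 decline by class was thus seen in cluster 10 and not in cluster 13. All 9 oligodendrocyte markers were raised in both clusters. In the class as a whole, precursor markers summed to 501 and 539 CPM, astrocyte markers to 159.6 and 230.1, and dentate granule markers to 1393 and 1355, with 0 of the markers of these sets at 0. Without called doublets the class held 1116 control and 876 labelled-knockout nuclei. Keeping them gave a class of 1964 and 1483 nuclei and lowered the Shc3 log2 ratio to 1.93. It also lowered the ratio to 2.36 in committed precursor-like nuclei and to 2.88 in Cajal-Retzius-like nuclei. The part of nuclei of mixed content in these ratios was not tested further.

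Cajal-Retzius-like nuclei, the early-born Reelin neurons of the marginal zone, held 4 Shc3 UMIs in control and 111 in the labelled knockout. Their levels were 4.02 (1.10 to 10.3) and 98.6 (81.1 to 119), a log2 ratio of 4.45 (3.22 to 6.52), against 1.81% of genes higher. Markers of some other cell types were also higher there: oligodendrocyte precursor markers summed to 90.5 and 171 CPM, inhibitory markers to 185 and 342 and choroid plexus markers to 26.1 and 95.9. Astrocyte markers summed to 273 and 191, and the part of these cells in the Shc3 ratio was not tested. With thinned nuclei, and in female or male nuclei alone, the UMIs fell under the minimum counts. Cycling progenitor-like nuclei stood at 103 and 211 (1.03, 0.78 to 1.30), where 0.325% of genes were called higher and 0.201% lower. That call was lost in male nuclei (0.55), at a finer cluster resolution (0.47), with clustering without genes past 2-fold (0.95) and under both other scalings (1.00 and 0.99).

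The classes with the highest control levels of Shc3 differed little. Radial glia-like nuclei had 299.7 and 398 CPM (log2 ratio 0.41, 0.21 to 0.61) and astrocyte-like nuclei 244 and 274 (0.17, 0.08 to 0.25), neither past the size rule, where 0.382% and 0.138% of genes were called higher. Inhibitory-like nuclei had 113 and 100.1 (-0.17, -0.26 to -0.09). They were the only class with the minimum counts whose Shc3 ratio was below 0. In microglia-like nuclei, 42 and 35 UMIs gave 12.1 and 13.2 CPM (0.13, -0.56 to 0.81). Without cluster 37, Shc3 stood at 4.80 and 13.2 from 16 and 35 UMIs (1.44, 0.57 to 2.41), under the minimum counts.

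**Figure D3:**
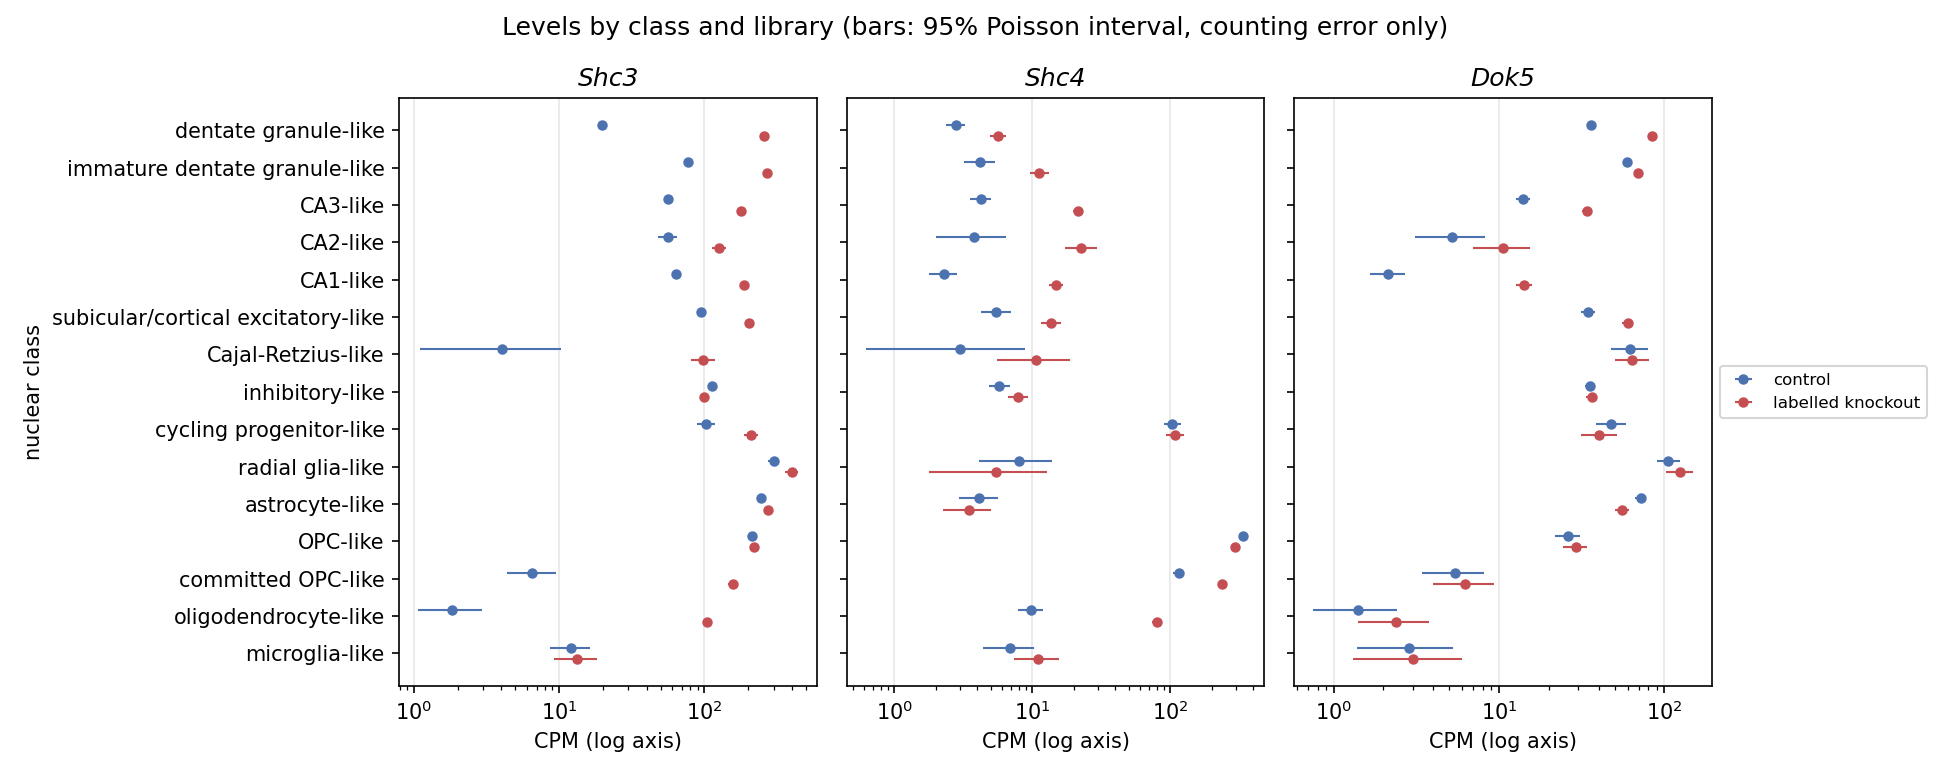
Levels of Shc3, Shc4 and Dok5 in CPM (log axis) in 15 classes, with control and labelled knockout as points and 95% Poisson intervals as bars. Shc3 in dentate granule-like nuclei moved from 19.7 to 256, and Shc4 in oligodendrocyte precursor-like nuclei stayed near its control level of 334.

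By order of level, Shc3 in the control ran from radial glia-like (299.7) through astrocyte-like (244) and oligodendrocyte precursor-like (212) to inhibitory-like nuclei (113), each of the first 3 above the next beyond its interval. Dentate granule-like nuclei ranked 11 of 15 by level, and oligodendrocyte-like nuclei last. In the labelled knockout, dentate granule-like nuclei ranked 4 of 15, and their interval did not overlap that of the oligodendrocyte precursor-like nuclei below them. There, the intervals of astrocyte-like and immature dentate granule-like nuclei overlapped, and microglia-like nuclei were last.

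Shc4 encodes a member of the Shc family, and its highest levels were in oligodendrocyte precursor-like, committed precursor-like and cycling progenitor-like nuclei. Its promoter window is shown because it holds letters of the Capicua site. RefSeq windows of 250 bases before to 50 after the start, on GRCm38.p6, were at hand for Shc1, Shc2 and Shc4, that is, for 3 of the 7 adaptors. They were searched on both strands for TGAATGAA, TGAATGGA, TCAATGAA and TCAATGGA. The first sequence is the Shc4 stretch before the start (chr2:125724149-125724398, minus strand, GRCm38.p6), and the second is a site after the start (chr2:125724101-125724130). Capitals mark the matches, which read as reverse complements.
Shc4 before the start: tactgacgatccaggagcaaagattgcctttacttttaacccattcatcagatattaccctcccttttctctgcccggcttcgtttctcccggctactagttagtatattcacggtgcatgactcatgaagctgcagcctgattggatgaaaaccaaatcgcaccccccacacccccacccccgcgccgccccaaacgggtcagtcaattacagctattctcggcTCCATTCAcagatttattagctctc
Shc4 site after the start: attcggcaaagTTCATTCAtaaaaatttca
TCCATTCA, the reverse complement of TGAATGGA, began 25 bases before the start, and TTCATTCA, that of TGAATGAA, began at base 30 after it. The first motif occurred in 1.21% and the second in 1.30% of 32851 windows of the same length. Any of the 4 motifs occurred in 3.84% of windows, and 2 or more matches in 0.183%. The windows of Shc1 (2 starts) and Shc2 (1 start) held 0 matches. Among the other known Capicua targets with a window, 4 of 10 held a match, namely Spry2, Spred3, Dusp6 and Fos. A match of letters is not evidence of binding.

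Shc4 was highest in oligodendrocyte precursor-like nuclei, and of the 9 classes with the minimum counts this was the one with a ratio below 0. Its level was 334 CPM in control and 297 in the labelled knockout (log2 ratio -0.17, -0.28 to -0.07). Committed precursor-like nuclei had 115 and 239, from 491 and 918 UMIs (1.05, 0.90 to 1.22). Oligodendrocyte-like nuclei had 9.77 and 80.2, from 90 and 609 UMIs (3.03, 2.72 to 3.37). In the control the level in oligodendrocyte-like nuclei was a small fraction of that in precursors. By class level the decline was smaller in the labelled knockout, as for Shc3. The labelled-knockout Shc4 level was 89.2 in cluster 10 and 26.0 in cluster 13. In clusters 10 and 13 of the oligodendrocyte-like nuclei the log2 ratio was 3.03 and 1.60, the latter from 38 and 28 UMIs in unequal numbers of nuclei and under the minimum counts. A Shc4 UMI was present in 7.35% and 38.9% of oligodendrocyte-like nuclei, beside 1.52% and 1.83% of the shallower microglia-like nuclei.

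The committed precursor call was lost with called doublets kept (0.76), with thinned nuclei (0.81), in male nuclei (0.93) and with clustering without genes past 2-fold (0.92). In oligodendrocyte-like nuclei the Shc4 ratio was 2.02 with called doublets kept. Cycling progenitor-like nuclei had 103 and 109 (0.07, -0.23 to 0.38). The larger cluster of this class was led by Eomes, a gene of neuronal intermediate progenitors, but Shc4 was not read by cluster there. No Shc4 UMI was seen in 82.8% of control and 80.8% of labelled-knockout nuclei of the class. Which of its nuclei carried the Shc4 UMIs was not tested.

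In the pyramidal classes Shc4 was nearly silent in control and low but countable in the labelled knockout. CA1-like nuclei had 2.28 and 14.9 CPM, from 74 and 329 UMIs (log2 ratio 2.70, 2.34 to 3.09). CA3-like nuclei had 4.22 and 21.6, from 126 and 526 UMIs (2.35, 2.07 to 2.65). CA2-like nuclei had 3.77 and 22.7, from 13 and 58 UMIs (2.55, 1.71 to 3.58). The intervals of the libraries were apart in all of these classes, and the share of CA3-like nuclei with a Shc4 UMI was 7.63% and 30.9% at medians of 23162 and 20138 UMIs. At 2000 UMIs these shares were 1.03% and 4.01%, beside 1.17% and 0.973% of microglia-like nuclei, whose Shc4 level was 6.90 and 10.9 CPM (7.32 to 15.7 in the labelled knockout). Immature dentate granule-like nuclei had 4.19 and 11.3 (1.42, 1.00 to 1.87), while the level in subicular or cortical excitatory-like nuclei was 5.48 and 13.7 (1.31, 0.89 to 1.76). In both classes, and in CA1-like nuclei, the labelled-knockout interval overlapped that of microglia-like nuclei. CPM alone thus did not separate these levels from background. CA3-like and CA2-like nuclei lay above the microglia-like interval. No Shc4 UMI was seen in 96.0% of control and 80.5% of labelled-knockout CA1-like nuclei, beside 98.5% and 98.2% of the shallower microglia-like nuclei. These shares were 97.8% and 95.2% in immature dentate granule-like and 92.0% and 83.7% in subicular or cortical excitatory-like nuclei. The subicular call was lost with called doublets kept (0.50), in male nuclei (0.91) and, for too few UMIs, with thinned nuclei (1.36). In thinned nuclei the CA1-like (2.29) and CA3-like (1.84) calls were also lost for too few UMIs. The CA2-like call was lost for the same reason when nuclei were thinned (2.09) and in either sex alone (3.03 in female, 1.78 in male nuclei).

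Mature dentate granule-like nuclei stayed low for Shc4 at 2.79 and 5.67 CPM (log2 ratio 1.02, 0.71 to 1.34), under the minimum level. Inhibitory-like nuclei had 5.78 and 7.89 (0.45, 0.10 to 0.80), also under it. In an annotation of another build, GENCODE M21 on GRCm38, Eid1 lies on the opposite strand within Shc4, and reads of the pair cannot be told apart where the counting ignores strand.

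Shc2 differed little, and Shc1 was below 2-fold where it could be measured. Shc2, the other neuronal Shc form, had the minimum counts in 8 classes, with log2 ratios between -0.01 and 0.27. Its level was 24.0 and 26.7 CPM in dentate granule-like nuclei (0.15, 0.03 to 0.27) and 23.8 and 25.2 in CA3-like nuclei (0.08, -0.08 to 0.24). These intervals stay well under 2-fold, so a difference of the size seen for Shc3 lies outside them for counting error. Shc1 was low in neurons and had the minimum counts in 3 classes. It stood at 19.7 and 33.3 in oligodendrocyte-like nuclei (0.76, 0.48 to 1.05), with lower ratios inside cluster 10 (0.59, 0.26 to 0.93) and cluster 13 (0.19, -0.68 to 0.93). It stood at 11.0 and 16.4 in committed precursor-like nuclei (0.57, 0.01 to 1.15) and at 16.5 and 16.2 in astrocyte-like nuclei (-0.02, -0.38 to 0.33). Microglia-like nuclei, the class read for free RNA, had 14.9 (11.2 to 19.6) and 17.3 (12.7 to 23.1). The level intervals of committed precursor-like and astrocyte-like nuclei overlapped these in both libraries. Those of oligodendrocyte-like nuclei overlapped them in the control alone. Gm47163 overlaps Shc2 on the opposite strand in the same annotation.

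Dok5 encodes an adaptor that binds neurotrophin receptors and Ret. Among the named classes its highest levels were in radial glia-like nuclei, at 106 and 124 CPM (log2 ratio 0.23, -0.14 to 0.58). It was higher by the size rule in the 3 large groups of mature hippocampal excitatory neurons. In dentate granule-like nuclei it stood at 36.1 and 83.7, from 1918 and 3086 UMIs (1.21, 1.13 to 1.30). In CA3-like nuclei it stood at 14.0 and 34.0, from 419 and 829 UMIs (1.28, 1.10 to 1.45). In CA1-like nuclei it stood at 2.13 and 14.2, from 69 and 314 UMIs (2.73, 2.36 to 3.14). Immature dentate granule markers summed there to 67.1 and 137.6 CPM and CA3 markers to 223 and 320. Subicular or cortical excitatory markers went the other way, at 468 and 298, and the part of these cells in the Dok5 ratio was not tested. The CA1-like ratio was 2.18 with called doublets kept, and the call was lost for too few UMIs in thinned nuclei (2.70). CA1-like nuclei were thus near the bottom of the Dok5 order in control and closer to CA3-like nuclei in the labelled knockout.

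Inside the dentate granule-like class, Dok5 stood at 46.7 and 83.7 in cluster 1 (log2 ratio 0.84) and at 33.8 and 85.1 in cluster 3 (1.34), so only cluster 3 passed 2-fold on its own. Inside the CA3-like class, cluster 8 stood at 12.1 and 35.6 (1.56), while cluster 20 stood at 22.1 and 28.3 (0.36). A Dok5 UMI was present in 31.5% of control and 54.9% of labelled-knockout dentate granule-like nuclei, beside 0.66% (0.40% without cluster 37) and 0.48% of microglia-like nuclei, and in 7.10% and 15.0% of dentate granule-like nuclei after thinning.

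Other classes showed smaller Dok5 ratios. Subicular or cortical excitatory-like nuclei had 34.4 and 60.0 CPM (log2 ratio 0.80, 0.62 to 0.98). Immature dentate granule-like nuclei had 59.8 and 69.5 (0.22, 0.09 to 0.35). Within them, cluster 11 stood at 36.6 and 75.4 (1.04) and cluster 0 at 71.4 and 66.1 (-0.11). Inhibitory-like nuclei had 35.6 and 36.3 (0.03, -0.12 to 0.18), and astrocyte-like nuclei 72.2 and 55.7 (-0.38, -0.56 to -0.20), which did not pass the size rule.

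Dok6, an adaptor of Ret and of the neurotrophin-3 receptor TrkC, was abundant in the excitatory classes and was slightly lower in most classes of the labelled knockout. Its level ran in control from 27.1 CPM in Cajal-Retzius-like to 1284 in immature dentate granule-like nuclei. The log2 ratio was below 0 in 13 of 14 classes with the minimum counts, with an interval wholly below 0 in 11, and none reached 2-fold. The lowest ratio, -0.67, was in microglia-like nuclei, the class read for free RNA, at 47.7 and 29.8 (-0.64 without cluster 37, -1.05 to -0.24). Oligodendrocyte-like nuclei, at 27.6 and 24.1, were not above that level, so not all of these classes stood above background. Dentate granule-like nuclei had 1005 and 853 (-0.24, -0.26 to -0.22), CA3-like nuclei 1223 and 1016 (-0.27, -0.29 to -0.25), and CA1-like nuclei 1252 and 1011 (-0.31, -0.33 to -0.28). The dentate value depended on the cluster: Dok6 stood at 765 and 853 in cluster 1 (0.16, 0.12 to 0.19) and at 1059 and 867 in cluster 3 (-0.29, -0.38 to -0.20). Radial glia-like nuclei went the other way from the rest, at 238 and 298 (0.32, 0.09 to 0.55).

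Per kilobase of gene span in GENCODE M21, Dok6 (2.11 CPM per kilobase) and Shc2 (1.21) led the 7 adaptors in control dentate granule-like nuclei, and Shc3 stood at 0.142. In the labelled knockout Shc3 stood at 1.85, beside 1.79 for Dok6 and 1.34 for Shc2. Per kilobase, Dok5 had 0.244 and 0.566, and Shc4 0.029 and 0.059. Undivided, the labelled-knockout levels of Shc3, Dok6 and Shc2 were 256, 853 and 26.7 CPM, so their order depended on the division. Whether the counts scale with gene span was not tested.

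Dok4 had the minimum counts in no class. Its level was at most 2.95 CPM in any control class and 3.55 in any labelled-knockout class. Dentate granule-like nuclei held 68 and 85 Dok4 UMIs, at 1.28 and 2.31 CPM (log2 ratio 0.85, 0.37 to 1.33), a level too low for the size rule. Inside the class, cluster 1 stood at 1.74 and 2.39 (0.42, -0.31 to 1.30), and cluster 3 held 51 and 0 UMIs, in 3426 and 118 nuclei. Polr2c overlaps Dok4 on the opposite strand in the same annotation.

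Each pool held nuclei of both sexes, which gives a reading of separate mice within a library: female nuclei came from 1 mouse and male nuclei from 2. All 20 called pairs had the same direction in female and male nuclei, and 15 were at least 2-fold in both. Shc3 in dentate granule-like nuclei stood at 25.4 in control female nuclei, 15.1 in control male nuclei, 247 in labelled-knockout female nuclei and 260.5 in labelled-knockout male nuclei. Both control values were far below both labelled-knockout values, with log2 ratios of 3.28 (3.13 to 3.43) and 4.11 (3.96 to 4.27). Dok5 in the same class stood at 38.2, 35.4, 88.2 and 84.2 in the same order (1.21 and 1.25). Shc4 in oligodendrocyte-like nuclei stood at 10.0, 10.1, 88.8 and 73.7 (3.13 and 2.85). Mice of one pool share a library, so these values are not replicates of a group.

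**Figure D4:**
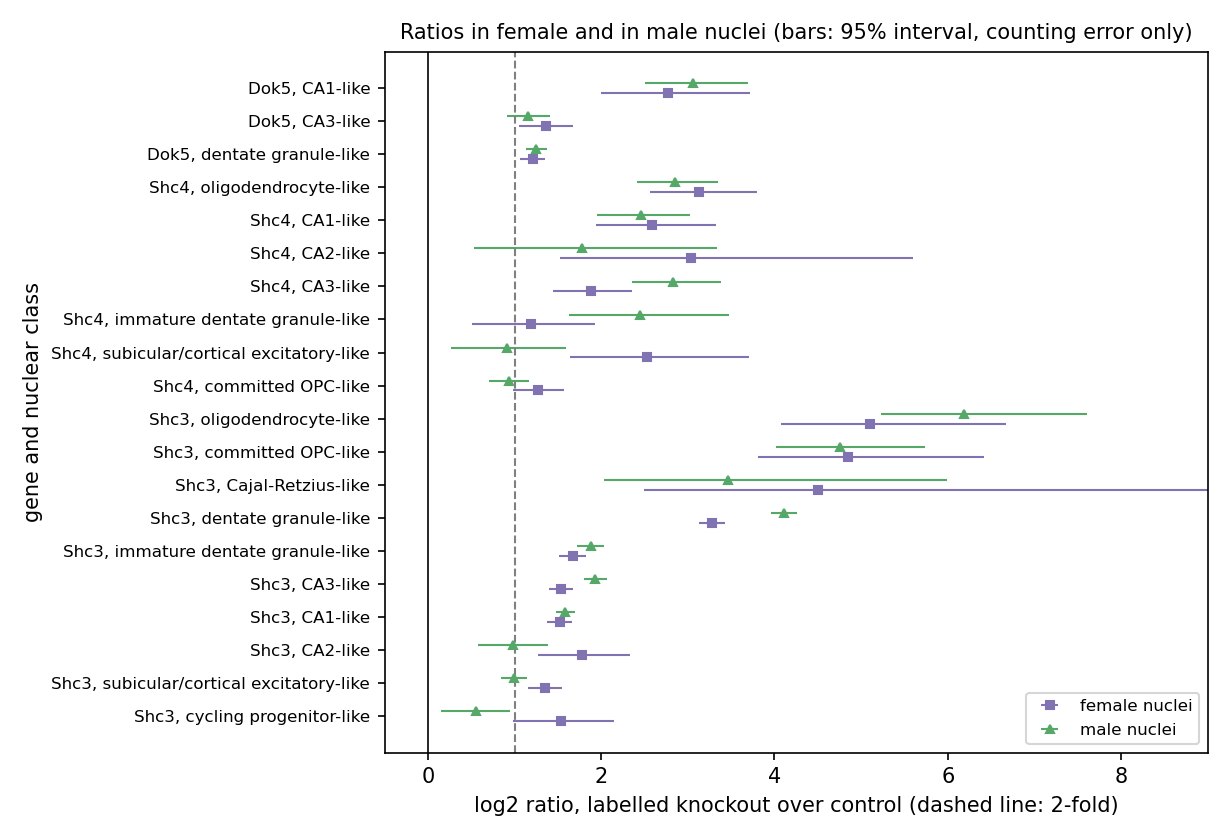
Log2 ratios of the 20 called pairs in female nuclei (1 mouse per library) and male nuclei (2 mice per library), with 95% intervals for counting error. The dashed line marks 2-fold, all points lie above 0, and the upper bound for Shc3 in female Cajal-Retzius-like nuclei, 10.41, runs past the axis.

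In the 6 unnamed clusters with enough nuclei, Shc3 was higher in 4 of 5 clusters with the minimum counts, Shc4 in 4 of 4 and Dok5 in 3 of 5, and all of these genes together in cluster 7 alone. Over all gene and cluster pairs there, 2.79% were called higher and 1.14% lower. Cluster 7, led by Gm12130, Tnni3k and Dcn, had Shc3 at 36.4 and 153 CPM (log2 ratio 2.07, 1.95 to 2.18), Shc4 at 2.80 and 15.7 (2.48) and Dok5 at 8.07 and 28.3 (1.81). Cluster 14, led by Tecta, had Shc3 at 26.4 and 198 (2.90, 2.67 to 3.15) and Shc4 at 3.16 and 21.4 (2.73), while Dok5 at 134 and 219 (0.71) was under 2-fold. Cluster 12, led by Gm42707, had Shc3 at 129.7 and 191 (0.56), under 2-fold, while Shc4 stood at 4.18 and 30.3 (2.85) and Dok5 at 2.23 and 10.95 (2.28). In cluster 22, Shc3 (67.2 and 219, 1.70) and Shc4 (2.25 and 22.1, 3.23) were higher and Dok5 (79.6 and 139, 0.81) was not. In cluster 28, Shc3 (87.7 and 226, 1.36) and Dok5 (40.3 and 102, 1.34) were higher, and Shc4 lacked the minimum counts. Cluster 26 lacked them for Shc3, Shc4 and Dok5. Dok6 had log2 ratios between -0.86 and -0.06 over the 6 clusters.

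The wider pathway was read from fixed lists. In dentate granule-like nuclei, 0 of 15 measurable other receptor adaptors passed the size rule in either direction, with a median log2 ratio of 0.04 over 20 genes against 0.02 over 17786 genes. Grb2, the direct partner of Shc proteins, stood at 66.0 and 62.3 CPM (-0.08). Of 10 measurable receptors, 1 was lower, the EGF receptor gene Egfr (10.5 and 5.10, -1.04, -1.29 to -0.80), and 0 were higher, where 1.1% of genes were called lower. The neurotrophin receptor genes Ntrk2 (359 and 336, -0.09) and Ntrk3 (1338 and 1222, -0.13) were near their control levels. Ret, a known partner of Dok4, Dok5 and Dok6, had 3 and 2 UMIs, too few to compare.

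In CA3-like nuclei, 2 of 16 measurable other adaptors were higher, the scaffold gene Gab1 (2.48 and 19.1, log2 ratio 2.94) and the insulin receptor adaptor gene Grb10 (19.2 and 48.7, 1.34), and 0 were lower, against 1.26% of all genes higher and 0.354% lower. Of 10 receptors there, Alk alone was higher (2.48 and 12.8, 2.36). In CA1-like nuclei, of 15 adaptors, Grb10 was higher (11.7 and 53.9, 2.21) and Gab3 lower (23.8 and 10.7, -1.16). Of 9 receptors, Fgfr1 was higher (42.0 and 89.7, 1.09), while Ltk (37.9 and 15.5, -1.29) and the neurturin co-receptor gene Gfra2 (13.2 and 2.31, -2.50) were lower, against 3.12% of genes higher and 1.02% lower.

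In oligodendrocyte-like nuclei, 1 of 14 adaptors was lower, Nck2 (46.8 and 21.9, log2 ratio -1.10), against 1.09% of genes. Of 11 receptors, Alk (41.8 and 143, 1.77) and Igf1r (62.0 and 139.6, 1.17) were higher and Kit (30.9 and 15.0, -1.04) was lower, where 2.25% of genes were called higher. In inhibitory-like nuclei, 0 of 14 adaptors and 0 of 12 receptors passed the rule, where 0.0796% of genes were higher and 0.0228% lower. The other Dok genes (Dok1, Dok2, Dok3 and Dok7) were nearly all too low to be called: 1 of the 4 had the minimum counts in astrocyte-like and 1 in immature dentate granule-like nuclei, where 0 passed the rule, and 0 had them elsewhere.

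Known Capicua targets, a list of 15 genes that includes Shc3, gave 6 higher and 1 lower of 9 measurable genes in dentate granule-like nuclei, where 2.3% of genes were called higher and 1.1% lower, with a median log2 ratio of 1.56 over all 15 against 0.02 over all genes. The higher genes beside Shc3 were Etv4 (1.07 and 112 CPM, 6.69), Etv5 (1.47 and 90.3, 5.93), Spred3 (8.84 and 56.0, 2.66), Etv1 (30.5 and 111, 1.87) and Spred1 (57.5 and 123, 1.10). Etv1, Etv4 and Etv5 encode ETS factors downstream of receptor signalling, and Spred proteins inhibit Ras signalling. Spry2, another inhibitor of the pathway, was lower (12.6 and 5.67, -1.15). With Shc3 counted, 5 of 8 measurable targets were higher in CA3-like, 3 of 9 in CA1-like and 6 of 7 in oligodendrocyte-like nuclei. In each of these classes 0 were lower. Over all genes, 1.26%, 3.12% and 2.25% were called higher there. The median log2 ratios of the targets were 0.66, 0.69 and 2.16, against 0.08, 0.10 and -0.10 over all genes. In inhibitory-like nuclei 0 of 7 measurable targets passed the rule.

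Genes with the pattern most like an adaptor were ranked by Pearson's r of the log2 level over the 15 control classes, among 16389 genes. The classes share 1 library, so r is a description. Ptpn9 (0.96), Ctnnd2 (0.92) and 4930570B17Rik (0.92) were most like Shc3. Susd5 (0.97), A930009A15Rik (0.97) and Rbpjl (0.97) were most like Shc4, and Igdcc4 (0.92), Obsl1 (0.92) and Ift81 (0.90) most like Dok5. Me3 (0.97), Gm12296 (0.96) and Cd226 (0.96) were most like Dok6, Tro (0.96), Tacc2 (0.94) and Pdzd4 (0.94) most like Shc2, and Rpap2 (0.97), Rimoc1 (0.96) and Ccdc62 (0.96) most like Shc1. By the log2 ratio between libraries over 15 classes, among 8251 genes, 9630014M24Rik (0.94), Tenm2 (0.91), Ptpn9 (0.91), Mapk10 (0.90) and Per2 (0.89) were most like Shc3.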

How the data were processed

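Per the submitters' processing notes and the matrix headers, the authors made the deposited values with Cell Ranger 8.0.1 on mm39. The deposited counts are UMIs of each gene in each nucleus as the authors' pipeline wrote them, not normalized. Totals were 314453640 and 252995761 UMIs over 25907 and 23207 barcodes. Intervals and floors cover counting error only. Per the labels' protocols, frozen tissue was lysed, nuclei were purified with anti-nucleus beads and 20000 nuclei per library were aimed for on a 10x 3′ chip.

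Nuclei with under 500 genes or over 5% mitochondrial UMIs were left out, as were doublets (12.7% and 10.9%), called in each library by Scrublet as built into scanpy 1.11.5 with 0.1 as the expected rate. Both libraries were clustered together in Python 3.11.15 (anndata 0.12.19, scikit-learn 1.9.0) from 3000 variable genes and 30 principal components over 15 neighbours, by the Leiden method at resolution 1 (leidenalg 0.10.2, igraph 0.11.9), without batch correction, since library and genotype coincide. A cluster took the name of the best of 22 marker sets. It stayed unnamed with under 3 markers raised by 0.5 on the log2 scale in 10% of its nuclei, a mean log2 fold under 0.5, more leading markers of another set, or a low depth with no leading marker. UMIs were summed per library and class with numpy 2.4.6 and pandas 2.3.3, and 0.5 UMI was added for ratios. Intervals (scipy 1.17.1) were exact Poisson for levels, conditional binomial for ratios and Clopper-Pearson for shares. The code for ratios, intervals and calls was tested on simulated counts. Female nuclei had 2 or more Xist UMIs and none of a Y-linked gene, and male nuclei no Xist UMI and at least 1 of a Y-linked gene.

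The members, lists and settings were chosen with earlier results of these data known. All 7 members are named. Other list genes are named when past the size rule in the 5 main classes, up to 6 per list and class, with Grb2, Ntrk2, Ntrk3, Ret and Cic. Known Capicua targets are the exception: they are named for dentate granule-like nuclei alone and only counted in the other main classes. List medians use genes with 20 or more UMIs over the pair of libraries. GENCODE M21 held 31961 of 33696 identifiers (94.9%). Alternatives covered doublets, filters, scaling, depth, sex, clustering, the added UMI and the count minimum.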

Additional observations from a re-analysis of the deposited data

Results flagged for a closer look

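Some ratios went against the classes in which the same gene was higher, and none of these differences between classes was tested. Shc3 had a log2 ratio of -0.17 (-0.26 to -0.09) in inhibitory-like nuclei, while it was positive in each of the 10 classes past the size rule. Shc4 had -0.17 (-0.28 to -0.07) in oligodendrocyte precursor-like nuclei, the class with its highest level, while the later classes of the same lineage were higher. Dok5 had -0.38 (-0.56 to -0.20) in astrocyte-like nuclei.

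Dok6 in oligodendrocyte-like nuclei moved in opposite directions in the sexes. Its log2 ratio was -1.16 (-1.70 to -0.66) in female nuclei, from 100 and 48 UMIs, and 0.50 (0.07 to 0.93) in male nuclei, from 91 and 94 UMIs. Female nuclei came from 1 mouse per library, and the difference was not tested. In the whole class the Dok6 level, 27.6 and 24.1 CPM, was not above that of microglia-like nuclei (47.7 and 29.8), read as background.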

How the results depend on the processing

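No paired analysis was possible because each group is 1 library, and leaving out a library leaves no comparison. Over 11 alternatives, the 20 called pairs gave 220 values, of which 220 kept their direction, 205 were at least 2-fold and 195 passed the size rule. In 15 pairs every alternative was at least 2-fold, and in 10 every alternative passed the rule. A second count left out the Shc3 pairs of the next paragraph and kept the remaining measurable pairs, called or not. It held 617 values and so overlaps the 220. Of the 617, 99 moved outside the counting interval and 0 called values reversed.

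Shc3 in dentate granule-like nuclei (log2 ratio 3.70) was 3.52 with called doublets kept, 3.53 with thinned nuclei, 3.28 in female and 4.11 in male nuclei. In CA3-like nuclei (1.67) it was 1.58 with TMM factors, 1.57 with thinned nuclei, 1.54 in female and 1.93 in male nuclei. In CA1-like nuclei (1.54) it was 1.45 with median-of-ratios size factors, 1.44 with TMM factors, 1.74 with thinned nuclei and 1.67 at Leiden resolution 2. The causes were not tested.

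The count of pairs called higher, 20, was 12 with thinned nuclei and 13 in male nuclei, and 18 to 23 otherwise. The count of pairs called lower, 0, was 1 in female nuclei (Dok6 in oligodendrocyte-like nuclei). The median gene moved by over 0.1 on the log2 scale only in CA2-like (0.10 by median of ratios, 0.13 by TMM) and oligodendrocyte-like nuclei (-0.10 by median of ratios). At 2000 UMIs per nucleus, depth limits Shc4 and Dok5 calls, also in CA1-like nuclei.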
